A study of Mus musculus with 11 samples.

Results

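The 10 genes described here encode 7 matrix metalloproteinases (Mmp2, Mmp3, Mmp8, Mmp9, Mmp12, Mmp14 and Mmp19) and 3 tissue inhibitors of metalloproteinases (Timp1, Timp2 and Timp3). They were taken by symbol from the 31053 genes counted in single-cell libraries of dissociated mouse lung, and all 10 were detected in all 11 libraries. The series concerns the restoration of mouse telomerase (mTert) from the p21 locus and its relation to capillary loss and emphysema in the old lung. Per the labels, p21Het mice (3 libraries) are heterozygous for p21 (+/-), p21mTert mice (5 libraries) carry mTert in 1 p21 allele (+/mTert), p21mTertCD mice (2 libraries) carry an mTertCD allele (+/mTertCD), which the labels do not spell out, and 1 WT library is wild type (+/+). Each group other than WT therefore carries 1 unmodified p21 allele, and per the title the inserted gene is induced where p21 is expressed. The age labels give 18 months, except 19 for p21Het_1 and 20 for p21mTert_1, whose titles say 18. The labels do not say whether libraries came from separate animals, so p-values measure only the spread between these libraries.

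Matrix metalloproteinases are zinc-dependent endopeptidases that are made as inactive proenzymes and cut collagens, elastin, proteoglycans and other matrix proteins once their propeptide is removed. TIMPs bind the active site and block it, so the balance of the 2 families helps set the local rate of matrix turnover. In the lung the family is best known for the breakdown of elastin and collagen in emphysema, where macrophage elastase (Mmp12) is the classical mouse enzyme.

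The zinc-binding site of the catalytic domain is shown because it is the feature that the inhibitors occupy and that unites the enzymes measured below. The coding stretches are from GENCODE M21 transcripts (GRCm38) and run from the first histidine codon over 24 bases, with the first and second histidine codons of the site in capitals.
Mmp3: CATgaacttggcCACtccctggga
Mmp8: CATgaatttggaCATtctttggga
Mmp12: CATgaacttggcCATtccttgggg
Mmp14: CATgagttggggCATgccctaggc
The stretches of Mmp3 and Mmp12 shared 21 of 24 bases, those of Mmp8 and Mmp12 shared 20, and that of Mmp14 shared 16 with each of the other three. Mmp12 (chr9:7344381-7369499), Mmp3 (chr9:7445822-7455975) and Mmp8 (chr9:7558456-7568485) neighbour each other on the plus strand of chromosome 9, yet their RNA was highest in different cells. Promoter windows of 300 bases around annotated starts (RefSeq, GRCm38.p6) were listed for 7 of the 10 members (all but Mmp2, Mmp9 and Mmp19), in 8 windows. The motif TGAGTCA, the classical binding sequence of AP-1 factors, was searched on both strands and lay in 2 of these 8 windows and in 5.2% of all 32851 windows. The following stretches show it in capitals, 40 bases upstream of the listed start in Mmp3 (chr9:7445766-7445792) and 38 bases upstream of the second listed start in Mmp12 (chr9:7347320-7347346).
Mmp3: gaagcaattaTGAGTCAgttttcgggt
Mmp12: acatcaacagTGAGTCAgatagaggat
The other members lie at chr8:92827291-92853420 (Mmp2), chr2:164940780-164955850 (Mmp9), chr14:54431612-54445364 (Mmp14), chr10:128790910-128800824 (Mmp19), chrX:20870166-20874735 (Timp1), chr11:118301069-118355740 (Timp2, minus strand) and chr10:86300372-86349506 (Timp3). Mmp12 overlaps Mmp1b, Timp1 overlaps Syn1, Timp3 overlaps Syn3, and Mmp19 overlaps Gm47093 and Tmem198b, all on the opposite strand, and Timp2 holds Cep295nl on its own strand. Whether the counting used strand is not given in the sources used here.

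Levels are given as CPM, the UMIs (unique molecular identifiers, 1 per captured RNA molecule) of a gene per 1000000 UMIs. Since a UMI counts a molecule at its 3′ end, levels were not divided by transcript length. The deposited libraries held 42038434 to 85988955 UMIs, and 65694 of 81983 barcodes were kept as cells. Between 4 and 20 cell barcodes were shared by any pair of libraries, at most 0.322% of the smaller library. Cells were clustered without the members, and clusters were named from marker genes as 28 classes ending in "-like", while 21 clusters with 11231 cells stayed unnamed. WT_1, p21Het_1 and p21mTert_1 were deposited earlier than the other 8 libraries and had median mitochondrial shares of 6.30% to 6.58%, against 2.82% to 4.28% in the later ones. Tert was 0.727 ± 0.181 CPM (SD, n = 3) in p21Het, 2.52 ± 0.532 (n = 5) in p21mTert, 2.26 ± 0.515 (n = 2) in p21mTertCD and 1.12 in WT. Libraries stood apart in cell makeup: neutrophil-like cells were 22.7% of p21Het_3 and 2.32% to 8.43% of the other 10 libraries, and Gpnmb macrophage-like cells were 7.08% of p21Het_2 and 8.43% of p21mTertCD_1 against 0.0849% to 2.32% elsewhere. B cell-like cells were 1.18% of p21mTertCD_1 and 9.58% to 37.5% of the others.

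The members were concentrated in few lineages: a fibroblast group (Mmp2, Mmp3, Timp1), a myeloid group (Mmp8, Mmp9, Mmp12, Mmp19) and 3 genes of broader range (Mmp14, Timp2, Timp3). The classes are clusters, so the differences between them are described and not tested, and means ± SD are over libraries with at least 20 cells of the class. Mmp3, the stromelysin that cuts proteoglycans and activates other proenzymes, was 317 ± 144 CPM in fibroblast-like cells (n = 11), which held 95.5% of its UMIs. The next class, pericyte or smooth muscle-like cells, had 12.7 ± 22.4 CPM (n = 8), and 5 of these 8 libraries had no Mmp3 UMI. Mmp2, gelatinase A, was 341 ± 65.1 CPM in fibroblast-like cells (n = 11) with 81% of its UMIs, followed by venous endothelial-like cells at 53.4 ± 13 CPM (n = 11). These ranges did not touch: the lowest fibroblast-like library had 282 CPM of Mmp2 and the highest venous one 74.6. Mmp2 was also seen in Gpnmb macrophage-like cells at 8.53 ± 7.09 CPM (n = 7), which contributed 7.2% of its UMIs (4.16% without p21mTertCD_1). Timp1, a secreted inhibitor, was 86.6 ± 38.2 CPM in fibroblast-like cells (n = 11) and 80.9 ± 45.3 CPM in mesothelial-like cells (n = 6), 2 levels that do not differ beyond their spread.

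**Figure D1:**
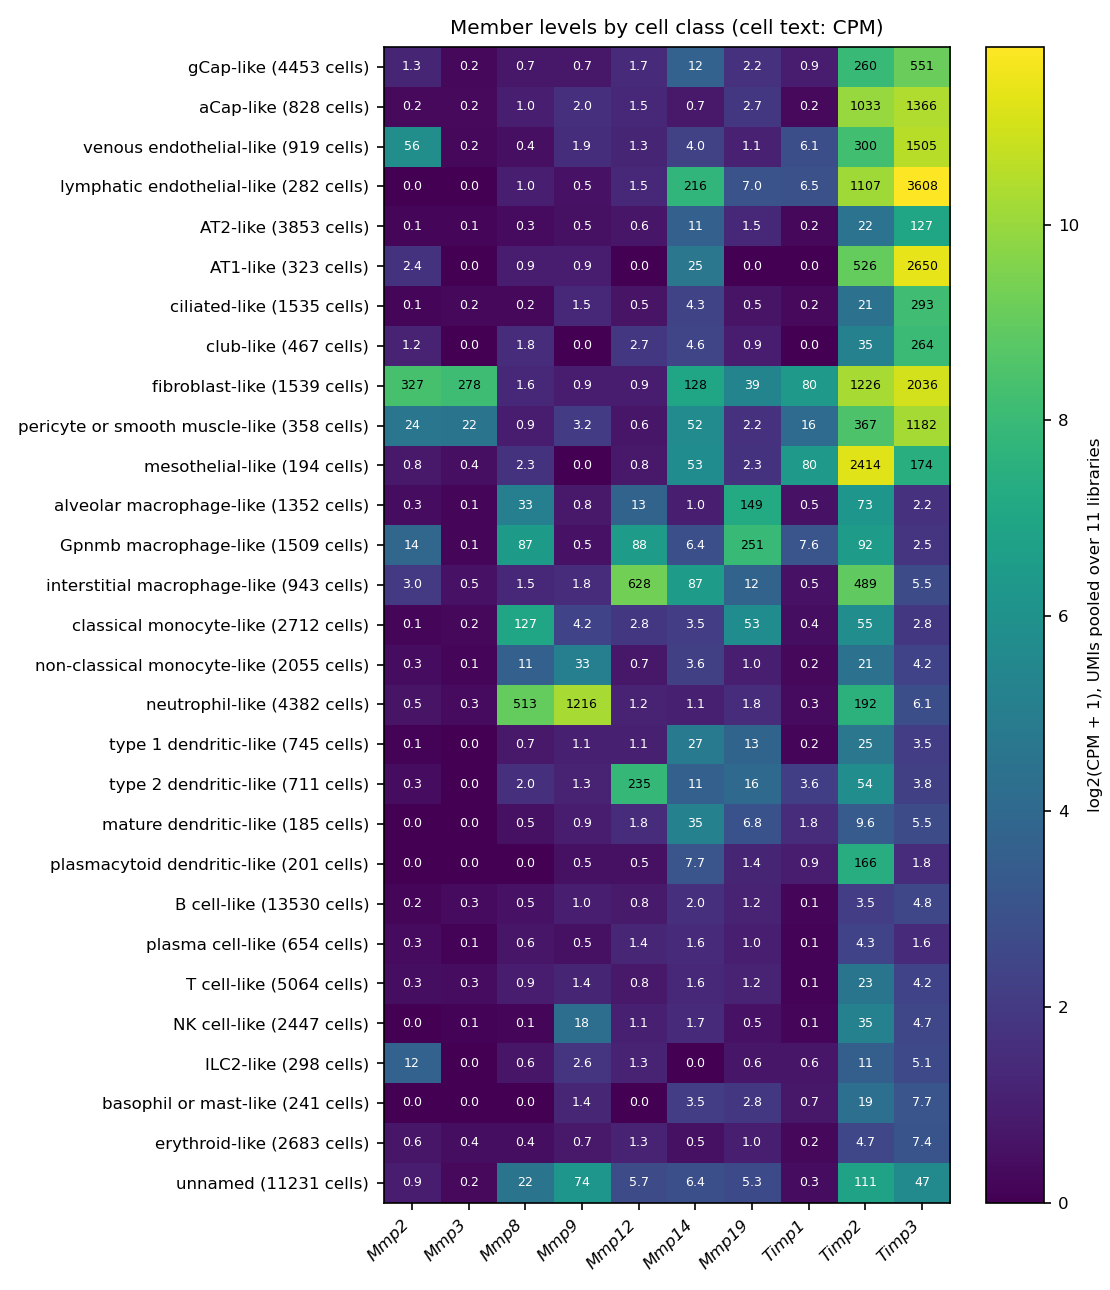
Heat map of the 10 members (columns) in 28 named cell classes and the unnamed clusters (rows). The colour is log2(CPM + 1) of UMIs pooled over 11 libraries, and the number in each field is the pooled CPM. Mmp2 and Mmp3 stand out in fibroblast-like cells, Mmp8 and Mmp9 in neutrophil-like cells, and Timp2 and Timp3 are spread over stromal, endothelial and AT1-like rows.

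Within fibroblast-like cells, the cluster led by Dcn, Clec3b and Col1a2 (718 cells) had pooled levels of 527 CPM of Mmp3, 477 CPM of Mmp2 and 139.8 CPM of Timp1. The cluster led by Inmt, Mfap4 and Npnt (567 cells) had 37.6, 194 and 22.2 CPM of the same genes. Mmp14 (173 against 89.3 CPM) and the inhibitors Timp2 (1475 against 1036) and Timp3 (2772 against 1419) differed less between the clusters. Another, shallow cluster led by Inmt and Gpx3 (254 cells, median depth 0.34 of that of its libraries) had 1.55 CPM of Mmp3 and 54.3 of Mmp2.

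The 4 myeloid proteases had 3 leading classes: neutrophil-like cells for Mmp8 and Mmp9, interstitial macrophage-like cells for Mmp12 and Gpnmb macrophage-like cells for Mmp19. Mmp9, gelatinase B, was 1231 ± 264 CPM in neutrophil-like cells (n = 11), which held 73.9% of its UMIs and in which 65.5% of cells had an Mmp9 UMI after thinning to 1000 UMIs (93.6% unthinned). Mmp8, neutrophil collagenase, was 490.5 ± 122 CPM in the same cells (n = 11) and 102 ± 49.9 CPM in classical monocyte-like cells (n = 11). It was also present in Gpnmb macrophage-like (67.8 ± 41 CPM, n = 7) and alveolar macrophage-like cells (32.6 ± 8.15 CPM, n = 11), so neutrophil-like cells held 47.8% of Mmp8 but 73.9% of Mmp9. Mmp12, the macrophage elastase, was 663 ± 132 CPM in interstitial macrophage-like cells marked by C1q genes (n = 11), with 51.8% of its UMIs (628 CPM pooled, against 367 CPM when cells were gated 1 by 1 on markers), and 233 ± 139 CPM in type 2 dendritic-like cells (n = 11). Its level in alveolar macrophage-like cells was 12.8 ± 8.28 CPM (n = 11). Mmp19, a secreted protease of basement membrane proteins, was 186 ± 88.7 CPM in Gpnmb macrophage-like cells (n = 7) and 138 ± 47.7 CPM in alveolar macrophage-like cells (n = 11), levels that overlap in their spread. Those 2 classes held 48.1% and 25.9% of Mmp19, and classical monocyte-like cells held 13.2% at 45.8 ± 17.3 CPM (n = 11). These shares rest on p21Het_2 and p21mTertCD_1: without both, Gpnmb macrophage-like cells held 16.5%, alveolar macrophage-like cells 46.3% and classical monocyte-like cells 20.1% of Mmp19.

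Mmp14, the membrane-anchored protease that activates the Mmp2 proenzyme, was highest in lymphatic endothelial-like cells at 226 ± 36.5 CPM (n = 9), above fibroblast-like (134 ± 24.4, n = 11) and interstitial macrophage-like cells (84.7 ± 18.6, n = 11). Timp2, which also takes part in Mmp2 activation by Mmp14, was highest in mesothelial-like cells at 2453 ± 152 CPM (n = 6). Fibroblast-like (1255 ± 227, n = 11), lymphatic endothelial-like (1112 ± 157, n = 9) and aCap-like capillary cells (1023 ± 112, n = 10) followed, and these 3 did not differ beyond their spread. Timp3, the inhibitor that binds to the matrix and also blocks Adam17, was highest in lymphatic endothelial-like cells at 3655 ± 556 CPM (n = 9). AT1-like (2513 ± 135, n = 6) and fibroblast-like cells (2192 ± 656, n = 11) came next and overlapped. Capillary gCap-like cells had 533 ± 113 CPM of Timp3 (n = 11) and held 10.3% of its UMIs, while AT2-like cells had 127 CPM pooled. In leukocyte classes Timp3 was at most 7.68 CPM pooled (basophil or mast-like cells), whereas Timp2 reached 495 ± 58 CPM in interstitial macrophage-like (n = 11) and 191 ± 30.9 CPM in neutrophil-like cells (n = 11).

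Free RNA was gauged in B cell-like and erythroid-like cells, whose median depths were 3973 and 3478 UMIs. After thinning to 1000 UMIs, the share of B cell-like cells with a UMI was 0.00739% (Timp1) to 0.569% (Timp3) and that of erythroid-like cells 0.0373% to 0.745% over the 10 members. In the leading class the thinned share was 21% for Mmp2 and 7.6% for Mmp3 in fibroblast-like cells (median 6968 UMIs), 88.7% for Timp2 in mesothelial-like cells (median 12957 UMIs), and 27% for Mmp12 in interstitial macrophage-like cells (median 10092 UMIs). The unthinned shares of the same 4 were 61%, 16.1%, 98.5% and 52.1%. In fibroblast-like cells, then, Mmp3 UMIs lay in a smaller share of cells than Mmp2 UMIs, although the 2 levels did not differ beyond their spread.

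Unnamed clusters held 21.6% of Mmp9 and 9.97% of Mmp8. A cluster of 916 cells led by Slfn4, Oasl1 and Ifit1 had 448 CPM of Mmp8 and 994 of Mmp9, close to neutrophil-like cells, and one of 174 cells led by Il1rn, Hcar2 and Ccl3 had 177 and 423. A cluster of 434 cells led by Ccl8, Ccl7 and Cxcl13, with the macrophage genes Cd163 and Folr2 among its top genes, had 345 CPM of Mmp9 and 821 of Timp2 but 10.2 of Mmp12. Among non-classical monocyte-like cells, 1 cluster of 147 cells had 347.5 CPM of Mmp9 and 109.6 of Mmp8. The median depth of that cluster was 2.26 times that of its libraries, and WT_1, p21Het_1 and p21mTert_1, the 3 libraries of the earlier deposit, gave 27, 39 and 34 of its cells. That of the Ccl8-led cluster was 2.42 times. The part of depth and deposit in these levels was not tested.

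By Pearson's r of log2(CPM + 1) over the 28 classes, which share libraries and depth, the genes most like Mmp3 were 9330159F19Rik (r = 0.993), Adra1a (0.993) and Srpx (0.986). Only genes other than the members with at least 10 CPM, pooled, in any class were ranked. Lox, the collagen and elastin crosslinking enzyme, was among the 3 most like Mmp2 (0.817, beside Tmem45a at 0.839 and Adamts17 at 0.82). Mmp8 was nearest to Gm5150, Fpr2 and Trem1 (0.915, 0.914 and 0.902), and Mmp9 to S100a9, Nlrp12 and 4732465J04Rik (0.926, 0.921 and 0.916). The complement genes C1qa (0.817) and C1qb (0.795) and Fcrls (0.839) were most like Mmp12. For Mmp19 they were Sh3pxd2b, Siglec1 and Slc9a4 (0.821, 0.817 and 0.809), and for Mmp14 Myh10, Itpkc and Il11ra1 (0.793, 0.781 and 0.765). Timp1 was nearest to Kirrel, Sfrp1 and Cdo1 (0.899, 0.891 and 0.891) and Timp2 to Nfic, Tspan4 and Golim4 (0.84, 0.83 and 0.829). For Timp3 the nearest was Syn3 (0.965), in which it lies on the opposite strand, before Fermt2 (0.965) and S100a16 (0.964). Between members, the highest r was that of Mmp2 with Mmp3 (0.746), and that of Mmp8 with Mmp9 was 0.582.

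No member passed the test between genotypes in the whole lung. The question was whether p21mTert lungs differ from p21Het lungs, and from lungs with the mTertCD allele, in the RNA of these proteases and inhibitors. UMIs were summed over all kept cells of a library, and in such sums fewer cells of a type and less RNA per cell cannot be told apart. All 10 members entered the fit over 17341 genes, and at an adjusted p under 0.05 (edgeR) 0 were called in each of the 3 contrasts. Over all genes 0.0115% were called for p21mTert minus p21Het, 0.00577% for p21mTert minus p21mTertCD and 0.0404% for p21mTertCD minus p21Het. At an unadjusted p under 0.05, 1 member (Mmp19) stood in each of the first and second contrasts, where 7.41% and 16.1% of all genes did, and 0 in p21mTertCD minus p21Het. DESeq2 called 1 member (Mmp19) in p21mTert minus p21mTertCD, where it called 3.84% of all genes, and 0 in the others. The median edgeR log2 fold change of the 10 members was -0.38 for p21mTert minus p21Het, where 9 estimates were negative and 1 (Timp3) positive, and -0.60 for p21mTert minus p21mTertCD, with the same split. The estimates of Mmp2 and Mmp14 against p21Het were near 0, and their mean CPM was slightly higher in p21mTert (9.87 against 9.69, and 11.3 against 11.2). The medians over all genes tested were 0.015 and 0.016, and 47.1% and 48% of all genes were lower. The split and the medians rested on single libraries. Against p21Het, 6 estimates were negative and 4 positive without p21Het_2 (median -0.010), without p21Het_3 (-0.096) and without p21mTert_1 (-0.24), and 8 were negative without p21mTert_5 (-0.42). Mmp2 (0.14), Mmp14 (0.32) and Timp1 (0.12) turned positive without p21Het_2, Mmp3 (0.096), Mmp9 (0.51) and Timp2 (0.017) without p21Het_3, and Mmp2 (0.086), Mmp14 (0.015) and Timp2 (0.030) without p21mTert_1. The median against p21Het was -0.67 without p21Het_1. Against p21mTertCD all 10 were negative without p21mTertCD_1, with a median of -0.32. Both contrasts share the p21mTert libraries. With deposit as a term, and in the 8 later libraries alone, 0 members were called in every comparison of the whole lung and of single classes, and the earlier deposit holds 1 library each of WT, p21Het and p21mTert and 0 of p21mTertCD.

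Mmp19 had the lowest p of the 10 members in both p21mTert contrasts. Its whole-lung level was 18.5, 38.5 and 29.8 CPM in p21Het_1 to p21Het_3, 16.8, 17.5, 18.9, 11.8 and 18.2 in p21mTert_1 to p21mTert_5, 79.6 and 24 in p21mTertCD_1 and p21mTertCD_2, and 8 (95% interval 7.07 to 9.01) in WT. Every p21mTertCD library lay above all 5 p21mTert libraries, p21mTertCD_1 far above, and p21Het overlapped p21mTert through p21Het_1. The log2 fold change was -0.88 ± 0.39 (SE; edgeR adjusted p = 0.664) for p21mTert minus p21Het and -1.72 ± 0.43 (SE; edgeR adjusted p = 0.192) for p21mTert minus p21mTertCD. DESeq2 gave the second difference an adjusted p of 0.0108. Leaving out 1 library at a time, its edgeR estimate ran from -2.40 to -0.55, and leaving out either p21mTertCD library leaves a lone one in that group. Gpnmb macrophage-like cells held 81.2% of Mmp19 UMIs in p21mTertCD_1 and 82.3% in p21Het_2, and 1.74% to 45.3% in the other 9 libraries. Without these cells the log2 fold changes were -0.33 and -0.70 (edgeR adjusted p = 0.917 and 0.506). Without p21Het_2 and p21mTertCD_1 together they were -0.57 and -0.55. With equal weight for each of 16 classes, Gpnmb macrophage-like cells not among them, the Mmp19 differences were 0.015 and -0.46.

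Mmp12 was also highest in p21Het_2 and p21mTertCD_1. It was 21.8, 49.8 and 16 CPM in p21Het, 18.6, 9.77, 22.8, 21.3 and 21.3 in p21mTert, 34.9 and 24.9 in p21mTertCD and 11.5 (95% interval 10.4 to 12.7) in WT, in order of replicate. Both p21mTertCD libraries were above the 5 p21mTert libraries, and p21Het overlapped p21mTert. The log2 fold change was -0.73 ± 0.38 (SE; edgeR adjusted p = 0.664) against p21Het, which became -0.011 without p21Het_2 and p21mTertCD_1, and -0.76 ± 0.43 (SE; edgeR adjusted p = 0.402) against p21mTertCD, which became -0.44. Without the Gpnmb macrophage-like cells the values were -0.40 and -0.70, and at equal weight for each of 16 classes they were -0.21 and -0.16. Gpnmb macrophage-like cells held 44.7% of Mmp12 UMIs in p21Het_2 and 29.6% in p21mTertCD_1.

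The neutrophil proteases were highest in p21Het_3, the library richest in neutrophil-like cells. Mmp8 was 31.2, 18.4 and 119 CPM in p21Het, 26.8, 18.3, 12.6, 14.2 and 43.4 in p21mTert, 76.9 and 22.4 in p21mTertCD and 22.7 (95% interval 21.2 to 24.4) in WT. The 3 groups overlapped. Mmp8 differed by -1.39 ± 0.65 (SE; edgeR adjusted p = 0.664) against p21Het, -0.10 without p21Het_3, and by -1.22 ± 0.72 (SE; edgeR adjusted p = 0.42) against p21mTertCD, -0.0032 without p21mTertCD_1. Mmp9 was 51.1, 18.1 and 184 CPM in p21Het, 56.7, 46.5, 22.4, 28 and 86.8 in p21mTert, 53.6 and 48.5 in p21mTertCD and 50.2 (95% interval 47.9 to 52.7) in WT. Another p21Het library, p21Het_2, was lowest, and the groups overlapped. For Mmp9 the log2 fold change was -0.91 ± 0.64 (SE; edgeR adjusted p = 0.711) against p21Het, turning to 0.51 without p21Het_3, and -0.17 ± 0.75 (SE; edgeR adjusted p = 0.924) against p21mTertCD. The second value ran from -0.48 without p21mTert_5 to -0.0040 without p21mTert_3. In p21Het_3 neutrophil-like cells held 59% of Mmp8 and 83.3% of Mmp9, with classical monocyte-like cells adding 31.5% of Mmp8. Without neutrophil-like cells the differences from p21Het were -1.51 for Mmp8 and -0.55 for Mmp9, and those from p21mTertCD -1.95 and -0.87. The unnamed cluster led by Slfn4, which was not removed here, had 365 of its 916 cells in p21mTertCD_1. At equal weight for each of 16 classes, the differences from p21Het were -0.53 for Mmp8 and -0.11 for Mmp9. Those from p21mTertCD were -0.41 and -0.024. In p21mTertCD_1, Gpnmb macrophage-like cells held 36% of Mmp8.

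**Figure D2:**
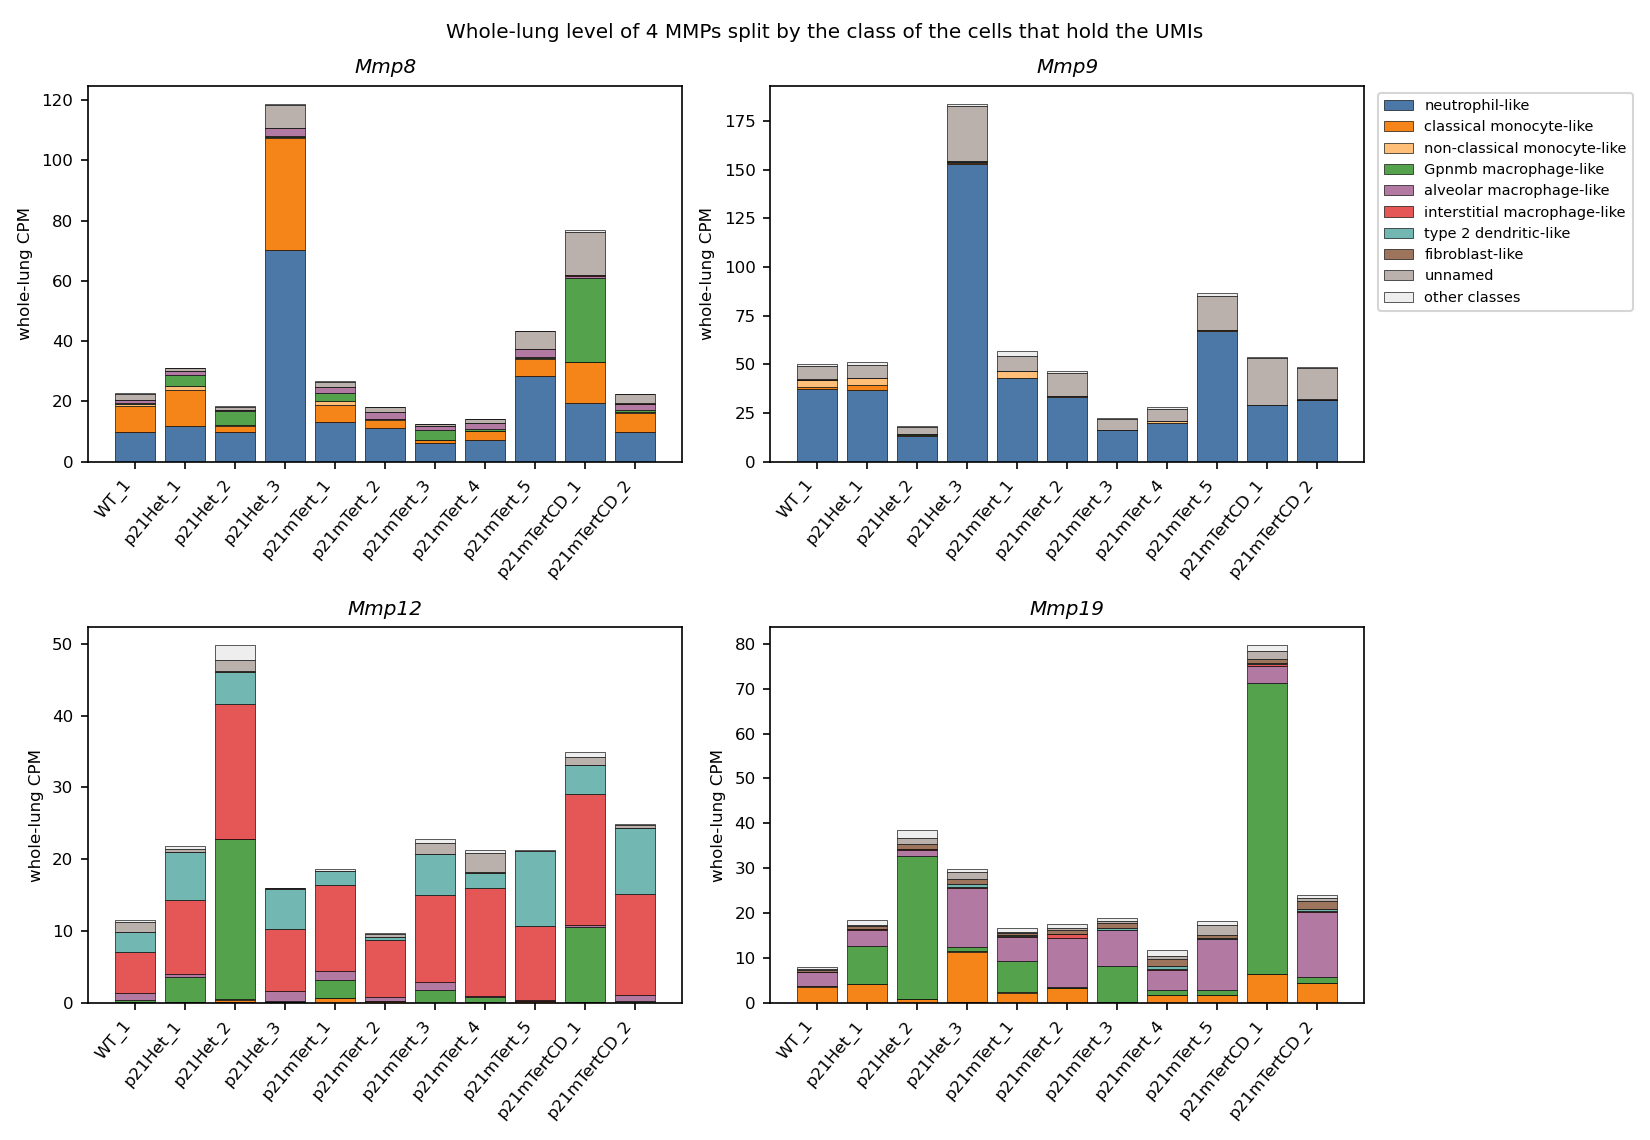
Whole-lung CPM of Mmp8, Mmp9, Mmp12 and Mmp19 in each of the 11 libraries (bars), split by the class of the cells that hold the UMIs (colours). The tall Mmp8 and Mmp9 bars of p21Het_3 are mostly neutrophil-like, and the tall Mmp19 bars of p21mTertCD_1 and p21Het_2 are mostly Gpnmb macrophage-like.

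The stromal proteases had no unadjusted p under 0.05 in the edgeR fit of the whole lung. Mmp2 was 9.04, 11.4 and 8.63 CPM in p21Het, 6.32, 9.46, 8.37, 17.9 and 7.22 in p21mTert, 9.19 and 14.5 in p21mTertCD and 6.19 (95% interval 5.38 to 7.09) in WT. Mmp3 was 4.79, 6.21 and 10.3 in p21Het, 2.87, 4.42, 8.33, 7.14 and 7.25 in p21mTert, 9.38 and 11.2 in p21mTertCD and 7.37 (95% interval 6.49 to 8.35) in WT. Both p21mTertCD libraries had more Mmp3 than every p21mTert library. The other pairs of replicated groups overlapped for these genes, and the WT library had the least Mmp2. Mmp14 was 10.2, 15.5 and 7.96 in p21Het, 9.41, 9.64, 11.7, 14.9 and 11 in p21mTert, 15.8 and 13.1 in p21mTertCD and 7.88 (95% interval 6.96 to 8.88) in WT, where the 3 replicated groups overlapped and WT was lowest. Against p21Het the log2 fold changes of p21mTert were -0.045 ± 0.32 (SE; edgeR adjusted p = 0.976) for Mmp2, -0.32 ± 0.37 (SE; edgeR adjusted p = 0.816) for Mmp3 and -0.056 ± 0.23 (SE; edgeR adjusted p = 0.96) for Mmp14. With equal weight for each of 16 classes the Mmp2 difference from p21Het was -0.23 (2-sided exact permutation p = 0.0357, not adjusted). This p was the lowest of the 10 members in this contrast, where the smallest possible p is 0.0179. CPM was averaged over classes before the log, so fibroblast-like cells, with the highest Mmp2 level, weigh most in this value. Against p21mTertCD the edgeR values were -0.33 ± 0.36 (SE; edgeR adjusted p = 0.657), -0.84 ± 0.41 (SE; edgeR adjusted p = 0.35) and -0.43 ± 0.26 (SE; edgeR adjusted p = 0.431). Leaving out 1 library at a time moved the Mmp2 value against p21mTertCD between -0.62 (without p21mTert_4) and -0.058 (without p21mTertCD_2), and took that of Mmp14 to -0.24 without p21mTertCD_1.

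Timp3 was the only one of the 10 members with a higher edgeR estimate in p21mTert than in both p21Het and p21mTertCD. Timp3 was 169, 139 and 101 CPM in p21Het, 127, 207, 184, 264 and 183 in p21mTert, 93.4 and 224 in p21mTertCD and 169 (95% interval 165 to 174) in WT. In 4 of the 5 p21mTert libraries Timp3 was above all p21Het libraries, p21mTert_1 was not, and the p21mTertCD libraries were the lowest and the second highest of these 10. The log2 fold change was 0.47 ± 0.29 (SE; edgeR adjusted p = 0.689) against p21Het and 0.23 ± 0.33 (SE; edgeR adjusted p = 0.748) against p21mTertCD. The second turned to -0.24 without p21mTertCD_1. With equal weight for each of 16 classes the first was 0.0024. Lymphatic endothelial-like and AT1-like cells, the classes with the highest Timp3 levels, were not among the 16. Nor were aCap-like and pericyte or smooth muscle-like cells. Timp2 was 116, 131 and 136 in p21Het, 93.7, 122, 121, 174 and 124 in p21mTert, 114 and 164 in p21mTertCD and 113 (95% interval 109.5 to 117) in WT. Timp1 was 1.99, 5.31 and 2.75 in p21Het, 1.89, 1.29, 2.8, 4.46 and 2.8 in p21mTert, 5.54 and 2.99 in p21mTertCD and 3.44 (95% interval 2.84 to 4.12) in WT. Neither separated the groups. For Timp2 the log2 fold changes were -0.071 ± 0.19 (SE; edgeR adjusted p = 0.933) and -0.20 ± 0.22 (SE; edgeR adjusted p = 0.668), and for Timp1 -0.45 ± 0.44 (SE; edgeR adjusted p = 0.777) and -0.79 ± 0.49 (SE; edgeR adjusted p = 0.444), against p21Het and p21mTertCD in turn. Against p21mTertCD, Timp1 ran from -1.23 without p21mTertCD_2 to -0.21 without p21mTertCD_1, and Timp2 from -0.40 without p21mTertCD_1 to -0.0013 without p21mTertCD_2.

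**Figure D3:**
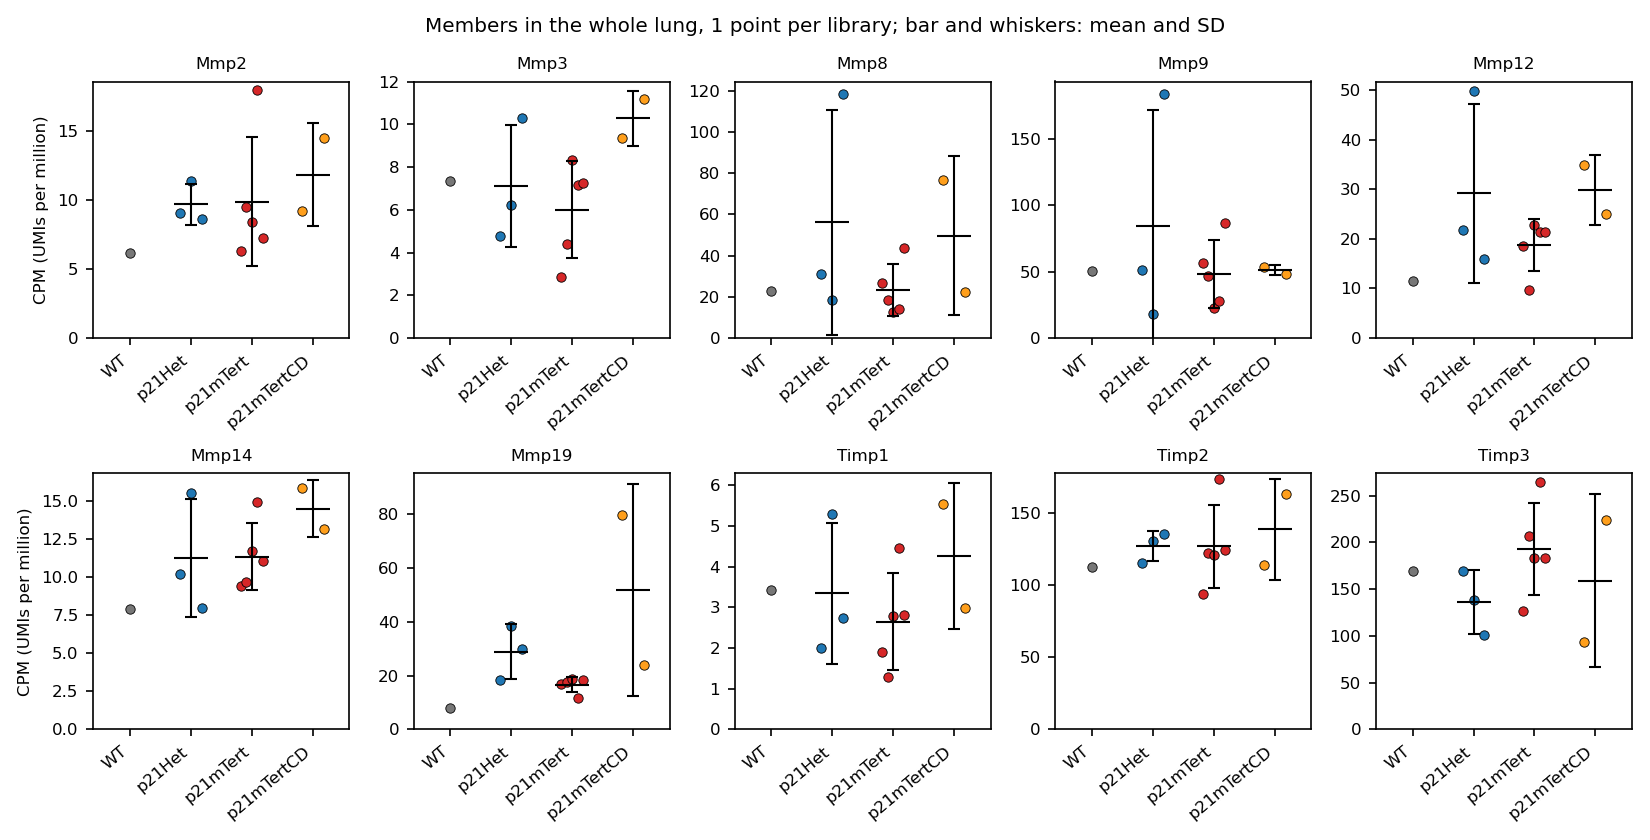
Whole-lung CPM of the 10 members (panels) by group, with 1 point per library and the mean and SD for groups of 2 or more. Mmp8 and Mmp9 peak in 1 p21Het library, Mmp19 peaks in 1 p21mTertCD library, and the groups overlap in most panels.

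The UMIs of the 7 MMPs per 100 UMIs of the 3 TIMPs were 51.05, 57.5 and 157 in p21Het, 61.8, 35.0, 34.2, 26.0 and 62.9 in p21mTert, 131 and 40.6 in p21mTertCD, and 39.9 in WT. The 2 ratios above 100 were those of p21Het_3 and p21mTertCD_1. Mmp8 and Mmp9 made up 80.6% of the MMP UMIs in p21Het_3, and 23.1% to 66.7% in the other libraries. Timp3 was 42.1% and 43.8% of the TIMP UMIs in p21Het_3 and p21mTertCD_1 and 50.5% to 62.6% elsewhere.

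Within single classes edgeR called no member either, and DESeq2 called 1 (Timp2 in neutrophil-like cells, p21mTert minus p21Het). Within classes, the fit was run in 8 chosen ones, each in 3 contrasts, and the number of members that passed the count filter was 7 in fibroblast-like, 5 in pericyte or smooth muscle-like, 3 in gCap-like, 5 in AT2-like, 4 in alveolar macrophage-like, 4 in interstitial macrophage-like, 6 in classical monocyte-like and 4 in neutrophil-like cells. Libraries with fewer than 20 cells of a class were left out, which removed p21Het_3 and p21mTert_1 from pericyte or smooth muscle-like cells. At an adjusted p under 0.05 (edgeR) 0 were called in each of the 24 comparisons. Over all 27 comparisons, whole lung included, 16 of 144 member tests (11.1%) had an unadjusted p under 0.05, beside 6.16% of all gene tests. DESeq2 called 2 (that one and Mmp19 in the whole lung), beside 0.493% of all gene tests. The 16 were Mmp19 in the whole lung (2 contrasts) and in alveolar macrophage-like cells, Mmp2 in fibroblast-like cells, Mmp12, Mmp14 and Timp2 in AT2-like cells (2 contrasts each), Mmp8 and Mmp9 in classical monocyte-like cells, and Mmp8 and Timp2 in neutrophil-like cells (2 contrasts each). Contrasts share libraries, so the 16 are not separate results. Mmp12 in AT2-like cells was 0.639 CPM pooled, below erythroid-like (1.27) and B cell-like cells (0.824). Mmp9 in classical monocyte-like cells of p21Het had a median of 1.12 CPM and a highest library of 26.25. The background was low: with p21mTert set first against p21Het, next against p21mTertCD, and last p21mTertCD against p21Het, 0%, 0% and 0% of genes were called in fibroblast-like cells and in pericyte or smooth muscle-like cells. The shares were 0.0105%, 0.242% and 0.116% in gCap-like, 0.062%, 0.0177% and 0% in AT2-like, and 0.041%, 0.0615% and 0% in alveolar macrophage-like cells. They were 0%, 0.0132% and 0.0132% in interstitial macrophage-like, 0.0866%, 0.303% and 0.952% in classical monocyte-like, and 0.183%, 0.0167% and 0.05% in neutrophil-like cells.

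In neutrophil-like cells Mmp8 and Timp2 had the lowest p, with lower estimates in p21mTert that did not pass the threshold. Mmp8 was 500.3, 703 and 558 CPM in p21Het, 422, 338, 368, 366 and 588 in p21mTert, 658 and 454 in p21mTertCD and 441 (95% interval 395 to 490.3) in WT. In 4 of the 5 p21mTert libraries Mmp8 lay below all p21Het libraries, and p21mTert_5 lay among them. Group means were 587 ± 104 (SD, n = 3), 416 ± 100.5 (n = 5) and 556 ± 144 (n = 2), with a log2 fold change of -0.68 ± 0.21 (SE; edgeR adjusted p = 0.265) against p21Het and -0.59 ± 0.24 (SE; edgeR adjusted p = 0.677) against p21mTertCD. Without p21Het_2 the first was -0.39, and without p21mTertCD_1 the second was -0.20. The edgeR fit rescales libraries (TMM) and CPM does not, so fold changes need not match the ratios of CPM means. The share of neutrophil-like cells with an Mmp8 UMI after thinning was 25.1% ± 2.96 in p21Het and 25.3% ± 3.6 in p21mTert (50.8% ± 4.17 and 51.2% ± 3.53 unthinned). Timp2, outside its leading class and chosen here after its values were seen, was 246, 229.7 and 204 CPM in p21Het, 180.2, 148, 148, 179 and 171 in p21mTert, 190.2 and 196 in p21mTertCD and 214 in WT. All 5 p21mTert libraries lay below the 3 p21Het libraries and below both p21mTertCD libraries. Its log2 fold change was -0.61 ± 0.13 (SE; edgeR adjusted p = 0.0809) against p21Het. DESeq2 gave an adjusted p of 0.0172 in a comparison where it called 0.567% of all genes. Without p21Het_1 edgeR gave an adjusted p of 0.0458, and the share of all genes called in that fit is not given here. The 10 classical monocyte markers, all detected in these cells, summed to 2324 to 5055 CPM in p21Het, 1638 to 3142 in p21mTert and 2739 to 3028 in p21mTertCD, and their part in the result was not tested. Mmp9 was 1548, 951 and 1220 in p21Het, 1376, 1006, 935, 1042 and 1399 in p21mTert, 968 and 1436 in p21mTertCD and 1661 (95% interval 1571 to 1755) in WT, which was highest, while the replicated groups overlapped, with log2 fold changes of -0.24 ± 0.15 (SE; edgeR adjusted p = 0.668) and -0.21 ± 0.17 (SE; edgeR adjusted p = 0.898). The first was -0.15 without p21Het_1, and the second turned to 0.038 without p21mTertCD_2.

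Mmp12 in interstitial macrophage-like cells, its leading class, had no call between genotypes. It was 693, 614 and 847 CPM in p21Het, 541, 686, 594, 703 and 834 in p21mTert, 480.1 and 808 in p21mTertCD and 488 (95% interval 422 to 563) in WT. The groups overlapped throughout, and the log2 fold changes were -0.071 ± 0.18 (SE; edgeR adjusted p = 1) against p21Het and 0.036 ± 0.20 (SE; edgeR adjusted p = 1) against p21mTertCD. The sign of both varied with the library left out, from -0.14 to 0.061 and from -0.27 to 0.40. Intervals of 2 SE ran from -0.42 to 0.28 and from -0.37 to 0.44. Mmp19 in alveolar macrophage-like cells was 94.2, 98.2 and 184 in p21Het, 105, 189, 144, 104 and 139.8 in p21mTert, 190.3 and 204 in p21mTertCD and 66 (95% interval 53.7 to 80.2) in WT. Both p21mTertCD libraries lay above all others, and the WT value was lowest. Log2 fold changes were 0.14 ± 0.24 (SE; edgeR adjusted p = 1) against p21Het and -0.53 ± 0.26 (SE; edgeR adjusted p = 0.772) against p21mTertCD. The first ran from -0.092 without p21Het_1 to 0.55 without p21Het_3. For p21mTertCD minus p21Het, chosen after its value was seen, the log2 fold change was 0.67 ± 0.29 (SE; edgeR adjusted p = 0.935). The 8 Gpnmb macrophage markers, all detected there, summed to 6580 to 7754 CPM in p21Het, 5631 to 8752 in p21mTert and 6393 to 8040 in p21mTertCD.

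All 6 members with fibroblast-like cells as their leading fitted class had lower p21mTert than p21Het estimates, and none passed the test. Of all genes tested in that fit, 51.1% had lower estimates, and the members were measured in the same libraries. Mmp2 was 387, 336 and 510.1 CPM in p21Het, 359, 294, 339, 316 and 347 in p21mTert, 291 and 282 in p21mTertCD and 289.7 (95% interval 249.6 to 334) in WT. Both p21mTertCD libraries lay below all p21Het and p21mTert libraries, and p21Het overlapped p21mTert. Log2 fold changes were -0.29 ± 0.14 (SE; edgeR adjusted p = 0.888) and 0.18 ± 0.17 (SE; edgeR adjusted p = 1), and, chosen after its value was seen, -0.47 ± 0.18 (SE; edgeR adjusted p = 1) for p21mTertCD minus p21Het. Mmp3 was 234, 261 and 597 in p21Het, 227, 149, 386, 139.7 and 371 in p21mTert, 505 and 244 in p21mTertCD and 374 (95% interval 328 to 424) in WT, a wide spread that ran through every group. Its log2 fold changes were -0.51 ± 0.38 (SE; edgeR adjusted p = 0.908) and -0.61 ± 0.42 (SE; edgeR adjusted p = 1), and the first was 0.015 without p21Het_3. Mmp14 was 129.8, 133 and 158 in p21Het, 132, 108, 118, 112 and 168 in p21mTert, 180.1 and 115 in p21mTertCD and 119.9 (95% interval 94.6 to 149.9) in WT, with log2 fold changes of -0.14 ± 0.18 (SE; edgeR adjusted p = 0.973) and -0.25 ± 0.20 (SE; edgeR adjusted p = 1). Against p21Het, Mmp2 was -0.12 and Mmp14 -0.066 without p21Het_3. Without p21mTertCD_1 the second values of Mmp3 and Mmp14 turned to 0.060 and 0.15.

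The inhibitors in fibroblast-like cells overlapped between groups as well. Timp1 was 48.7, 144 and 125 CPM in p21Het, 81.9, 28.9, 78.9, 61.2 and 99.7 in p21mTert, 141 and 52.6 in p21mTertCD and 90.3 (95% interval 68.6 to 117) in WT. Timp2 was 1280, 1094 and 1693 in p21Het, 1067, 1075, 1013, 1044 and 1489 in p21mTert, 1181 and 1459 in p21mTertCD and 1413 (95% interval 1322 to 1508) in WT. Timp2 was below all p21Het libraries in 4 of the 5 p21mTert libraries, and p21mTert_5 stood well above the other 4. Timp3 was 2779, 1547 and 3073 in p21Het, 2720, 1565, 1320, 1488 and 2524 in p21mTert, 1715 and 2661 in p21mTertCD and 2719 (95% interval 2593 to 2850) in WT. The 3 p21mTert libraries with the least Timp3 were replicates 2 to 4. Log2 fold changes against p21Het were -0.70 ± 0.39 (SE; edgeR adjusted p = 0.889) for Timp1, -0.24 ± 0.16 (SE; edgeR adjusted p = 0.892) for Timp2 and -0.35 ± 0.24 (SE; edgeR adjusted p = 0.893) for Timp3. Against p21mTertCD they were -0.53 ± 0.44 (SE; edgeR adjusted p = 1), -0.24 ± 0.18 (SE; edgeR adjusted p = 1) and -0.22 ± 0.27 (SE; edgeR adjusted p = 1). Each rested in part on 1 library. Against p21Het, Timp1 was -0.32 without p21Het_2 and -1.05 without p21Het_1, Timp2 was -0.056 without p21Het_3, and Timp3 ran from -0.57 without p21Het_2 to -0.16 without p21Het_3. Against p21mTertCD, Timp1 turned to 0.36 without p21mTertCD_1 and Timp3 to 0.063 without p21mTertCD_2, and Timp2 was -0.14 without p21mTertCD_2.

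**Figure D4:**
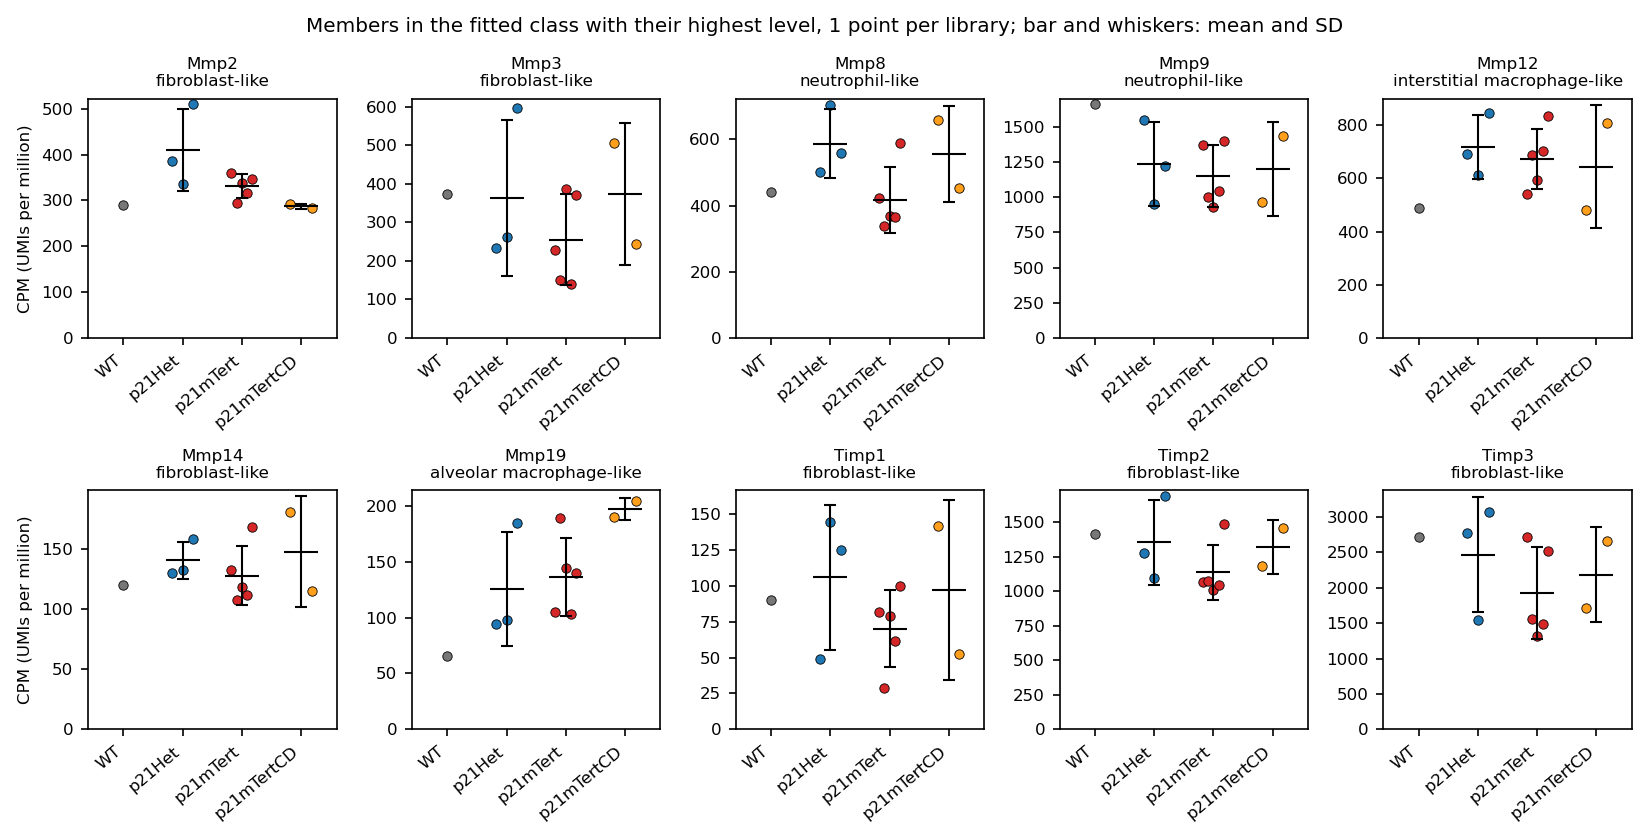
CPM of each member (panels) in the fitted class where its mean is highest, by group, with 1 point per library and the mean and SD for groups of 2 or more. Mmp8 in neutrophil-like cells is lower in 4 of 5 p21mTert libraries than in all p21Het libraries, and Mmp12 in interstitial macrophage-like cells overlaps between all groups.

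The mix of fibroblast-like clusters differed between libraries. The shallow cluster led by Inmt and Gpx3 made up 7.14% to 9.25% of fibroblast-like cells in p21Het and 12.7% to 23.9% in p21mTert. It made up 13.2% to 16.8% in p21mTertCD and 15.7% in WT. The Dcn-led cluster made up 57.2% to 81.4% of fibroblast-like cells in p21Het, 30.5% to 53.1% in p21mTert, 43.2% to 59.4% in p21mTertCD and 47.2% in WT, with 70 to 292 fibroblast-like cells per library. Within that cluster Mmp3 was 506 ± 170 CPM in p21Het (SD, n = 3), 485 ± 184 in p21mTert (n = 5) and 655 ± 207 in p21mTertCD (n = 2), and Mmp2 was 519 ± 22.2, 494 ± 62.5 and 401 ± 58.7. Timp1 there was 148 ± 72.5, 134 ± 45.6 and 136 ± 39.7. Within the cluster the p21mTert and p21Het means of these 3 genes differed by less than the SD over p21mTert libraries. For Mmp2 they differed by more than the SD over p21Het libraries. Mmp19 differed by more than either SD, with 56.4 ± 12.2 CPM in p21Het and 33.4 ± 15.7 in p21mTert. In the Inmt-led cluster of 567 cells, Timp1 was 36.3 ± 40.9 CPM in p21Het (n = 2) and 13.1 ± 8.6 in p21mTert (n = 5). Timp2 there was 1097 ± 245 and 947 ± 119. Both differed by more than the p21mTert SD but by less than the p21Het SD. These values within clusters were not tested. The part of the cluster mix in the class values was not tested.

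**Figure D5:**
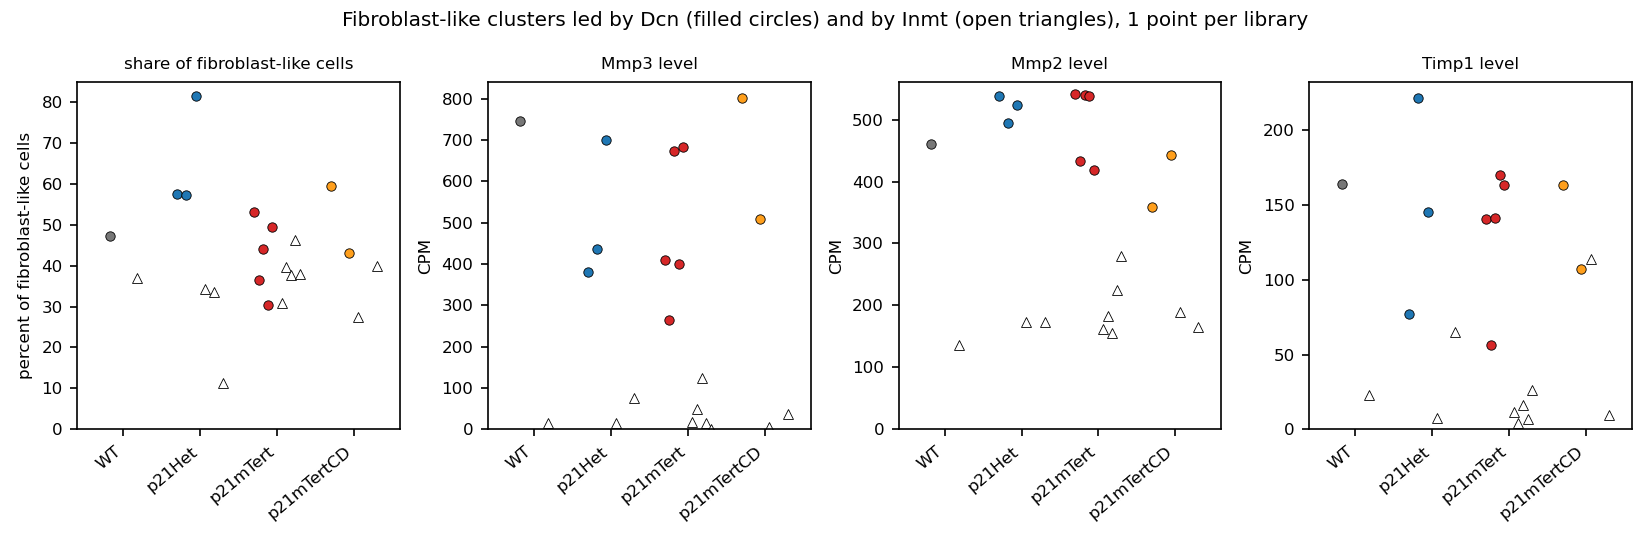
Fibroblast-like clusters led by Dcn (filled circles) and by Inmt (open triangles), 1 point per library, by group. The first panel is each cluster's share of fibroblast-like cells, and the others are CPM of Mmp3, Mmp2 and Timp1 in libraries with at least 20 cells of the cluster. The Dcn-led share is at least 57.2% in the 3 p21Het libraries and at most 53.1% in the 5 p21mTert libraries, while the levels within the cluster overlap.

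Outside the leading classes, Timp2 in AT2-like (alveolar type 2) cells, also chosen after its values were seen, was 24, 45.3 and 22.6 CPM in p21Het, 18.6, 9.99, 14.7, 13.4 and 18.4 in p21mTert, 29.6 and 24.6 in p21mTertCD and 9.08 in WT. All p21mTert libraries were below all p21Het and p21mTertCD libraries. AT2-like cells are 3 clusters, and the one led by Itih4, Pigr and Chil1 had 41.8 CPM of Timp2, pooled, against 24.9 and 14.5 in the others. It made up 0.714% to 40.2% of AT2-like cells in p21Het (highest in p21Het_2), 0.369% to 19.9% in p21mTert, 3.5% to 37.7% in p21mTertCD and 0% in WT. The log2 fold change was -1.13 ± 0.26 (SE; edgeR adjusted p = 0.516) against p21Het, and -0.60 without p21Het_2 and p21mTertCD_1. The 12 interstitial macrophage markers, all detected in these cells, summed to 485 to 965 CPM in p21Het, 366 to 660 in p21mTert and 592 to 622 in p21mTertCD. The 8 Gpnmb macrophage markers summed to 2375 to 3650, 2057 to 3762 and 2184 to 3520 CPM. The part of these markers and of the cluster mix in the AT2-like values was not tested.

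Of 38 other genes of the system (other MMPs, other inhibitors, activators and partners, and ADAM and ADAMTS proteases), 29 were tested in the whole lung. None rose or fell in any of the 27 comparisons (0 of 438 tests by edgeR and 0 by DESeq2, lowest edgeR adjusted p = 0.225), where edgeR called 0.0796% and DESeq2 0.493% of all gene tests. An unadjusted p under 0.05 was found in 37 tests (8.45%), beside 6.16% of all gene tests. The most abundant were Cd44 (460.5 CPM, mean of the 10 replicated libraries), an Mmp9 docking receptor, and Bsg (217 CPM), an inducer of MMP expression. Plaur, the receptor of urokinase, had 129 CPM, and Reck, a membrane-anchored inhibitor, 6.07. Mmp15, another membrane-anchored MMP, had 31.3 CPM, and each remaining MMP of the list at most 4.04 CPM (Mmp23). Mmp13, a collagenase, had 2.76 CPM in the whole lung and 122 CPM, pooled, in interstitial macrophage-like cells. Timp4, the inhibitor not among the members, had 2.4 CPM and was highest in pericyte or smooth muscle-like cells at 149 CPM, pooled. The differences of lowest unadjusted p were in Adamts10, a protease of microfibril assembly, in AT2-like cells, with log2 fold changes of -1.47 for p21mTertCD minus p21Het and -0.78 for p21mTert minus p21Het (edgeR adjusted p = 0.771 and 0.674). Mmp1a was not in the gene table.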

How the data were processed

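Cells of dissociated lung were counted by 3′ single-cell RNA sequencing. Per the labels' protocols and the submitters' processing notes, reads were processed with Cell Ranger against mm10; its version is not given consistently and is not stated here. The deposited values are UMI counts per gene and barcode from the authors, with no normalization. A barcode was kept if it held 1000 to 30000 UMIs, no more than 14% of them mitochondrial. Doublets were scored with Scrublet through scanpy 1.11.5, and the top-scoring 0.8% per 1000 barcodes (3.77% to 6.82% per library) were removed, leaving 65694 cells. Cells were clustered (2000 variable genes without the members, 40 principal components, Leiden resolution 2), and a cluster took the class with the most markers, at least 3, among its top 10 genes.

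UMI counts were summed per library and class (at least 20 cells) and tested with edgeR 4.0.16 (filterByExpr, TMM, quasi-likelihood, Benjamini-Hochberg over all genes tested, threshold 0.05) over p21Het, p21mTert and p21mTertCD. WT has 1 library and is given as a value with an exact binomial (Clopper-Pearson) interval that covers counting error only. DESeq2 1.42.0, no count filter, a deposit term, the later deposit, a replicate block, left-out libraries, doublets kept, all barcodes, equal class weight, at least 50 cells and marker-gated cells were tried as alternatives. Equal class weight averaged CPM, before taking logs, over the 16 classes with at least 20 cells in each of the 10 replicated libraries. The scripts were tested on simulated data, with known changes put into p21mTert for the contrast with p21Het. Of 2-fold changes edgeR called 48% in the whole lung, and from 21% (pericyte or smooth muscle-like) to 77% (gCap-like) in single classes. Genes without a change made up 6.71% of its calls in the whole lung and 10.9% in neutrophil-like cells. Kept UMIs were 33766321 to 61993630 per library. All members are named, with values in the whole lung and in the fitted class of highest mean; genes of like pattern are the 3 of highest r. Members and gene lists were chosen with earlier results of these data known. Samples were grouped by genotype label.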

Additional observations from a re-analysis of the deposited data

Results flagged for a closer look

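In the whole lung, Mmp2 of p21mTert_4 stood apart from the other p21mTert libraries, at 17.95 CPM against 6.32 to 9.47. In fibroblast-like cells, Timp2 of p21mTert_5 stood apart, at 1489 CPM against 1013 to 1075. Each gap to the nearest library exceeded the 95% critical value for 5 samples. Of 20 sets of p21mTert values examined this way 2 stood out, and chance gives about 1 in 20. The groups p21Het and p21mTertCD have too few libraries for this test and were not examined.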

How the results depend on the processing

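The count of members called was 0 in all 27 comparisons with a deposit term, in the later deposit, with doublets kept and without p21Het_2 and p21mTertCD_1 together. It was also 0 in the single classes run with per-cell marker gates or at least 50 cells, and in the whole lung with all barcodes or without Gpnmb macrophage-like or neutrophil-like cells; the last 2, leaving out the 2 libraries, and leaving libraries out of pooled UMI shares were chosen after seeing the data. DESeq2 called 1 member in the whole lung (Mmp19, p21mTert minus p21mTertCD) and 1 in neutrophil-like cells (Timp2, p21mTert minus p21Het). With no filter on low counts, edgeR called 1 in fibroblast-like (Timp1), pericyte or smooth muscle-like (Mmp3), AT2-like (Timp2) and neutrophil-like cells (Mmp8) for p21mTert minus p21Het, and 1 (Mmp19) in each of 2 contrasts of alveolar macrophage-like cells. In classical monocyte-like cells it called 2 (Mmp8, Mmp9), 3 (Mmp8, Mmp12, Mmp19) and 1 (Mmp9). The share of all genes called in these unfiltered fits is not given here, so the member calls cannot be set against it. The cause was not tested. Leaving out 1 library of p21Het or p21mTert gave 0 to 1 calls, the 1 being Timp2 in neutrophil-like cells without p21Het_1. The share of all genes called in that fit is not given here, so the call cannot be set against it. Without a p21mTertCD library, the lone one left is assumed to vary like the other groups, so calls there are not counted. Some of these fits in pericyte or smooth muscle-like cells could not be made for want of libraries. Pooled Mmp12 in interstitial macrophage-like cells was 367 CPM by the per-cell gate and 628 by cluster. No member was removed by the count filter in the whole lung, so the test planned for removed members was not run. With equal class weight the exact permutation test can give at the smallest 0.0179 for p21mTert minus p21Het, 0.0476 for p21mTert minus p21mTertCD and 0.1 for p21mTertCD minus p21Het, so the last could not pass 0.05. Members with too few counts in a class were not fitted, and differences there were not detectable at this depth.

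Log2 fold changes that changed sign were short of the threshold on both sides. In the whole lung, p21mTert minus p21Het turned to 0.14 (Mmp2), 0.32 (Mmp14) and 0.11 (Timp1) without p21Het_2 and p21mTertCD_1 together, to 0.0071 (Mmp2) with doublets kept, and to 0.015 (Mmp19) with equal class weight. For p21mTert minus p21mTertCD they turned to 0.14 (Mmp2, equal class weight) and -0.24 (Timp3, those 2 libraries out). In fibroblast-like cells the same contrast turned to 0.067 (Mmp3), 0.16 (Mmp14) and 0.37 (Timp1) without those 2 libraries, and to 0.088 (Mmp3) by the gate. Mmp12 in interstitial macrophage-like cells turned to -0.27 without them, -0.28 by the gate, -0.039 with doublets kept and -0.032 with at least 50 cells. Mmp19 in alveolar macrophage-like cells turned to -0.0034 against p21Het in the later deposit.

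Leaving out 1 library at a time, whole-lung p21mTert minus p21Het ran from -0.33 to 0.14 (Mmp2), -0.59 to 0.096 (Mmp3), -1.38 to 0.51 (Mmp9), -0.23 to 0.32 (Mmp14), -0.76 to 0.12 (Timp1) and -0.21 to 0.030 (Timp2), and p21mTert minus p21mTertCD from -0.24 to 0.90 (Timp3). In fibroblast-like cells the first ran from -0.765 to 0.0154 (Mmp3) and the second from -1.09 to 0.060 (Mmp3), -0.60 to 0.15 (Mmp14), -1.16 to 0.36 (Timp1) and -0.47 to 0.063 (Timp3). Mmp19 in alveolar macrophage-like cells ran from -0.092 to 0.55 against p21Het, Mmp12 in interstitial macrophage-like cells from -0.14 to 0.061 against p21Het and -0.27 to 0.40 against p21mTertCD, and Mmp9 in neutrophil-like cells from -0.40 to 0.038 against p21mTertCD.

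With a replicate block, edgeR called 1 member (Mmp19) in interstitial macrophage-like cells for p21mTert minus p21Het and 1 (Mmp19) for p21mTert minus p21mTertCD. The share of all genes called in these blocked fits is not given here. Over all libraries, Mmp19 in interstitial macrophage-like cells was 0 to 66.8 CPM in p21mTert, with a median of 7.96. It was 8.8 to 10.7 CPM in p21Het and 11.1 to 13.35 in p21mTertCD. The block turned p21mTert minus p21mTertCD to -0.014 (whole-lung Timp3), 0.046 (fibroblast-like Mmp14) and -0.26 (Mmp12 in interstitial macrophage-like cells). The labels share only the number, so the libraries were not treated as paired. Deviations of later-deposit libraries with the same number correlated at -0.47 to 0.107. The few later p21Het and p21mTertCD libraries have deviations that mirror each other, so these values cannot decide on pairing. With p21mTert_3, for example, r was 0.47 for p21Het_2 and -0.47 for p21Het_3.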
